A study of Mus musculus with 12 samples.

Results

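The mitochondrial carrier family Slc25 was followed in brain and spleen of mice with and without *Norad*. Its members were taken by name, as every gene whose symbol begins with Slc25a and a digit, which gave 47 of the 24062 genes measured. RNA-seq was performed on brain and spleen of male C57BL/6 mice at 10 weeks of age, 3 *Norad*+/+ and 3 *Norad*-/- libraries per tissue and 12 in all. *Norad*-/- mice carry a CRISPR/Cas9 deletion of the *Norad* gene in every cell, made with a pair of guide RNAs in C57BL/6J oocytes, and the study bred independent founder lines by backcrossing. No other allele or treatment is labelled, and nothing in the labels says which founder line or which mouse a library came from, so p-values measure the spread between these libraries. Levels are given in FPKM, a measure of reads per transcript length and per library depth, so that levels of different genes may be set side by side. Depth, estimated from the steps between low values, ran from 28.4 to 36.8 M reads per library. At these depths 34.4% to 37.9% of the low values fell within 2% of a whole number of reads. At the median of other depths 8.94% to 11.2% did, so the estimates are rough.

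Carriers of this family sit in the inner membrane of mitochondria, which is closed to most solutes, and each exchanges or takes up particular metabolites: ADP for ATP, phosphate, amino acids, organic acids, iron, nucleotides and vitamin-derived cofactors. Tissues of high energy demand such as brain are known for abundant ADP/ATP carrier, and red cell precursors for the carriers that supply iron and glycine to heme synthesis. *Norad* is a cytoplasmic long noncoding RNA that binds PUMILIO proteins, which repress mRNAs holding the PUMILIO response element (PRE), UGUANAUA, in their 3′ UTR.

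The family was screened for PREs because members that hold one are candidates for direct PUMILIO binding. Of the 46 members with an annotated 3′ UTR (GENCODE M21, GRCm38, sense strand, longest UTR), 10 held a PRE, 14 sites in all, and 36 held none. *Slc25a32* held 4 sites, *Slc25a12* held 2, and *Slc25a16*, *Slc25a21*, *Slc25a26*, *Slc25a30*, *Slc25a31*, *Slc25a37*, *Slc25a46* and *Slc25a51* held 1 each. Among members that passed the expression filter the share with a PRE was 20.5% (8 of 39) in brain and 24.3% (9 of 37) in spleen, against 28.4% and 25.9% of all genes with a UTR that passed. Shown are the sites of the members with several PREs and of those that differed most between genotypes in spleen. Each run is 30 bases of GRCm38 read 5′ to 3′ along the mRNA, with the PRE in capitals.
Slc25a32 site 1, chr15:39095657-39095686, minus strand: uuugcaauauuUGUAAAUAauuugaugaau
Slc25a32 site 2, chr15:39094891-39094920, minus strand: ccucuauuuuuUGUAAAUAaaucauuauaa
Slc25a32 site 3, chr15:39092113-39092142, minus strand: aaauaaaauucUGUAGAUAacaacauguau
Slc25a32 site 4, chr15:39091344-39091373, minus strand: aauguaauaaaUGUAAAUAauauguaaaau
Slc25a12 site 1, chr2:71274884-71274913, minus strand: ccuacagugacUGUACAUAuuguacaucuu
Slc25a12 site 2, chr2:71273441-71273470, minus strand: acaucuccauaUGUACAUAuuuauauauuu
Slc25a16, chr10:62946153-62946182, plus strand: gcauuuuuucaUGUAUAUAaauauuucuug
Slc25a21, chr12:56713545-56713574, minus strand: aguaagaaaaaUGUAAAUAcaccaaaacag
Slc25a37, chr14:69244484-69244513, minus strand: gaaaaaguuuaUGUACAUAaaaguaccauu
Slc25a51, chr4:45396298-45396327, minus strand: ugaagcagaauUGUACAUAcauaguauuau
A match is a description of these letters and not evidence of binding.

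*Norad* itself (2900097C17Rik in the tables) stood between 42.9 and 635 FPKM in the 6 *Norad*+/+ libraries and at no more than 0.0173 in the 6 *Norad*-/- libraries, as their labels say. The defining neuron and leukocyte markers marked the tissues: the summed level of 5 neuron genes was at least 1598 FPKM in every brain library and at most 15.7 in spleen. Replicate 3 of *Norad*+/+ brain and replicate 3 of *Norad*+/+ spleen stood apart, with median Spearman correlations to the other libraries of their tissue of 0.949 and 0.948 against 0.961 to 0.979 for the rest. *Norad*+/+ spleen replicate 3 held 282 FPKM in sum of 5 pancreas genes and 77.2 of 3 liver genes, against at most 0.257 and 0.062 in the other spleens, and *Norad*-/- brain replicate 3 held 1333 FPKM of 5 pituitary genes against at most 1.44. *Norad*-/- spleen replicates 1 and 2 were low in red cell precursor, neutrophil precursor and cell division genes, and their values are set beside the spleen results below.

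Most of the family was expressed in both tissues. The expression filter, an average of 1 FPKM or more across a tissue's 6 libraries, was passed by 39 members in brain and 37 in spleen, 36 of them in both. *Slc25a18*, *Slc25a29* and *Slc25a34* passed in brain alone and *Slc25a21* in spleen alone. The 7 that passed in neither were *Slc25a2*, *Slc25a31* (the germ cell ADP/ATP carrier), *Slc25a41*, *Slc25a43*, *Slc25a47*, *Slc25a48* and *Slc25a54*, whose highest value in any library was 0.884 FPKM, for *Slc25a47*. Summed over all 47 members, the family amounted to 991 to 1082 FPKM per library in brain and 560.0 to 907 in spleen, or 0.333% to 0.366% and 0.189% to 0.252% of all FPKM. In brain the 5 most abundant members made up 62.4% to 65.6% of that sum, in spleen 41.6% to 57.3%.

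The ADP/ATP carriers export the product of ATP synthase and the phosphate carrier feeds it, and 1 of the ADP/ATP carriers headed the brain list. *Slc25a4*, the ADP/ATP carrier of heart, muscle and brain (ENSMUSG00000031633, chromosome 8, 46206797 to 46211284), had 223, 270.2 and 348 FPKM in *Norad*+/+ brain and 269, 258 and 308 in *Norad*-/- brain. Its spleen levels were 53.2, 52.7 and 55.7 in *Norad*+/+ and 59.3, 63.0 and 49.0 in *Norad*-/-. All brain libraries were thus several times above all spleen libraries, while the genotypes overlapped in both tissues. *Slc25a5*, the ADP/ATP carrier of dividing cells, had the opposite order, with 18.5 to 24.8 FPKM over the 6 brain libraries and 27.6 to 37.9 over the 6 spleen libraries. *Slc25a5* has an annotated pseudogene, *Slc25a5-ps*, so its level may miss reads that map to both. *Slc25a3*, the phosphate carrier, was level, at 64.9 to 80.9 FPKM in brain and 62.9 to 76.9 in spleen.

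The calcium-regulated ATP-Mg/phosphate carriers differed between the tissues in opposite directions and stood at like levels in spleen. *Slc25a23* (ENSMUSG00000046329, chromosome 17, 57043711 to 57059863) was the second most abundant member in brain, with 169.6 to 214 FPKM, and fell to 9.23 to 13.5 in spleen. Its relative *Slc25a24* (ENSMUSG00000040322, chromosome 3, 109123149 to 109168457) had 1.05 to 1.26 FPKM in brain and 6.16 to 12.3 in spleen. Neither range met the other tissue's.

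In *Norad*+/+ mice, 40 members passed the filter and 30 differed between tissues at an adjusted p under 0.05, 16 higher in spleen (40% of members, against 43.6% of the 14216 genes tested) and 14 lower (35% against 35.4%). Among those called, *Slc25a18*, *Slc25a21*, *Slc25a29* and *Slc25a34* passed the filter only through the tissue where they are high. The median log2 difference, spleen minus brain, was 0.26 for members and 0.24 for all genes. In these *Norad*+/+ libraries the family was thus divided between the tissues in proportions near those of genes at large. Rescaling each library to TPM, with the filter and pseudocount on that scale, left 16020 genes tested in place of 14216. It moved the median of all genes by -0.23, a shift that mixes scaling with the change of genes. There 14 members were higher and 15 lower, beside 6037 and 6304 of the 16020 genes. In *Norad*-/- mice, which share no library with that comparison, 12 of 39 members were higher in spleen (30.8% against 45.9% of 14081 genes) and 17 lower (43.6% against 39.9%). The median log2 difference there was -0.13 for members and 0.16 for all genes, less near than in *Norad*+/+ mice. Of the 39 members tested in both genotypes, 14 were called higher in brain both times and 12 higher in spleen both times, 7 were called in neither, and 0 were called in opposite directions. The same count was not made for all genes, most of which were called in each genotype. This agreement is therefore not read as a trait of the family. *Slc25a17*, *Slc25a39* and *Slc25a51* were called higher in spleen in *Norad*+/+ mice but not in *Norad*-/- mice. *Slc25a15*, *Slc25a26* and *Slc25a42* were called lower in spleen in *Norad*-/- mice but not in *Norad*+/+ mice.

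**Figure D1:**
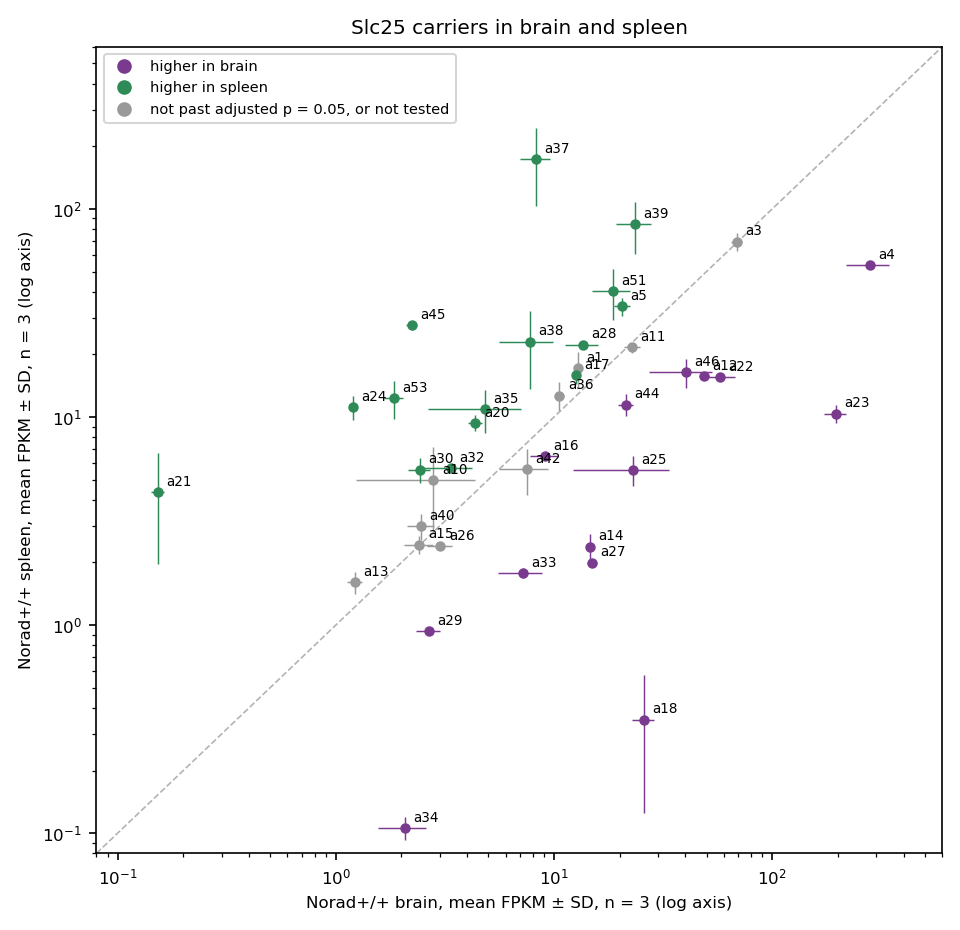
Mean FPKM of each carrier in *Norad*+/+ brain (horizontal) against *Norad*+/+ spleen (vertical), both on log axes, for all but 1 of the members that passed the expression filter. Bars are 1 SD over 3 libraries, purple and green mark members called higher in brain and in spleen, grey those not called, names are shortened to what follows Slc25, and the dashed line marks equal levels. *Slc25a23*, *Slc25a18* and *Slc25a4* lie far on the brain side, *Slc25a37*, *Slc25a45* and *Slc25a21* on the spleen side, and *Slc25a3* on the line.

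Among the 10 members that favoured brain most were carriers of glutamate and aspartate, of ATP-Mg and of ADP/ATP, and the brain uncoupling proteins. *Slc25a18*, a glutamate carrier known from astrocytes (chromosome 6, 120773578 to 120794336), had 23.2 to 29.0 FPKM in brain and 0.145 to 0.608 in spleen, a log2 difference of -5.95 ± 0.34 (SE) in *Norad*+/+ mice (adjusted p = 5.37e-06, limma). It overlaps *Atp6v1e1* on the other strand. *Slc25a23* differed by -4.22 ± 0.14 (adjusted p = 9.79e-07) and *Slc25a34*, whose substrate is not settled, by -3.37 ± 0.24 (adjusted p = 1.42e-05). *Slc25a18* and *Slc25a34* averaged 0.351 and 0.106 FPKM in *Norad*+/+ spleen and passed the filter through brain, so their values are a description. *Slc25a27* and *Slc25a14*, uncoupling proteins known from neurons, differed by -2.84 ± 0.11 and -2.58 ± 0.14. *Slc25a22*, the widely expressed glutamate carrier, and *Slc25a12*, the aspartate/glutamate carrier of the malate-aspartate shuttle in brain, differed by -1.86 ± 0.16 and -1.63 ± 0.10. *Slc25a4* (-2.35), *Slc25a25* (-1.94), a further ATP-Mg carrier, and *Slc25a33* (-1.92), a pyrimidine nucleotide carrier, complete the 10.

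The 10 that favoured spleen most were led by carriers of iron and organic acids. *Slc25a37*, mitoferrin-1, which brings iron into mitochondria of red cell precursors (ENSMUSG00000034248, chromosome 14, 69241848 to 69285112), had 6.78 to 9.29 FPKM in brain, and in *Norad*+/+ spleen 101, 179 and 242. The log2 difference was 4.30 ± 0.33 (SE, adjusted p = 2.09e-05, limma). *Slc25a21*, the oxodicarboxylate carrier (ENSMUSG00000035472, chromosome 12, 56712634 to 57197472), followed at 3.98 ± 0.41 (adjusted p = 9.95e-05). It averaged 0.153 FPKM in *Norad*+/+ brain and passed the filter through spleen, so these values are a description. *Slc25a45* differed by 3.57 ± 0.11 (adjusted p = 8.26e-07), with 1.73 to 2.36 FPKM in brain and 26.0 to 34.3 in spleen, and *Slc25a24* by 3.11 ± 0.14. *Slc25a53*, a member of no settled substrate that overlaps *Zcchc18* on the other strand, differed by 2.67 ± 0.18, with 1.65 to 2.02 FPKM in brain and 10.2 to 17.6 in spleen. *Slc25a39* (1.82), a glutathione carrier, *Slc25a38* (1.51), the glycine carrier used in heme synthesis, *Slc25a35* (1.25), *Slc25a30* (1.17) and *Slc25a51* (1.09), the NAD carrier, complete the 10. The difference of *Slc25a35* no longer passed after rescaling to TPM (adjusted p = 0.0635) or without *Norad*+/+ spleen replicate 1 (adjusted p = 0.0774).

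By role, beside 43.6% of all genes called higher in *Norad*+/+ spleen and 35.4% called lower, 4 of the 5 iron, glycine and glutathione carriers were called higher and 0 lower. Of the 5 malate-aspartate shuttle and glutamate carriers, 0 were called higher and 3 lower. Of the 9 nucleotide and cofactor carriers, 4 were called higher and 2 lower, and of the 5 acylcarnitine and amino acid carriers tested, 2 and 2. The 4 phosphate and ATP-Mg carriers tested had 1 higher and 2 lower, the 3 uncoupling-related members 1 and 2, the 2 ADP/ATP carriers tested 1 and 1, the 3 di- and tricarboxylate carriers 1 and 0, and the 4 other members tested 2 and 2. These groups are small, and no test of a group was made. *Slc25a11* (the oxoglutarate carrier of the malate-aspartate shuttle), *Slc25a15* (the ornithine carrier of the urea cycle) and *Slc25a3* had log2 differences of -0.08 ± 0.12, 0.02 ± 0.17 and 0.01 ± 0.13.

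Ratios of related carriers within a library do not depend on library scaling, and they separated the tissues for most of the pairs. The ratio of *Slc25a4* to *Slc25a5* was 12.1 to 16.3 in brain libraries and 1.47 to 2.15 in spleen. *Slc25a23* exceeded *Slc25a24* by 144 to 192 times in brain and stood at 0.782 to 2.20 times its level in spleen. The glutamate carriers *Slc25a22* and *Slc25a18* were within 1.98 to 2.70 times of each other in brain, and 24.9 to 112 times apart in spleen. The 24.9 was that of *Norad*+/+ spleen replicate 3. That library also held 15.7 FPKM in sum of the 5 neuron genes, against at most 3.93 in the other spleens. *Slc25a12* exceeded *Slc25a13*, the aspartate/glutamate carrier best known from liver, by 34.9 to 43.5 times in brain and 9.09 to 12.7 times in spleen. The uncoupling proteins *Slc25a27* and *Slc25a14* had a ratio of 0.853 to 1.12 in brain and 0.724 to 1.02 in spleen, ranges that overlapped. *Slc25a33* over *Slc25a36*, the pyrimidine nucleotide carriers, gave 0.496 to 0.844 in brain and 0.114 to 0.168 in spleen. *Slc25a15* exceeded *Slc25a2* by 17.3 to 62.3 times in brain and 9.87 to 37.6 times in spleen, ratios that rest on *Slc25a2* values of at most 0.228 FPKM.

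**Figure D2:**
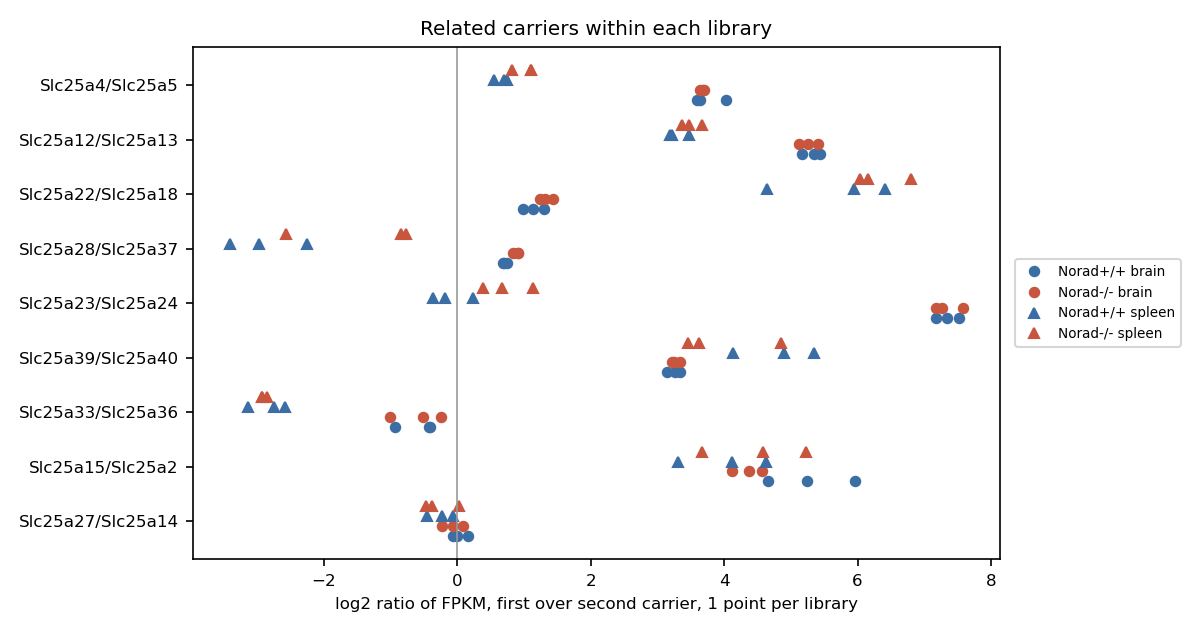
Log2 ratio of FPKM of related carriers within each library (horizontal, log2 units), 1 point per library, with circles for brain, triangles for spleen, blue for *Norad*+/+ and red for *Norad*-/-. *Slc25a23*/*Slc25a24* runs from 7.17 to 7.58 in brain and from -0.36 to 1.14 in spleen, and *Slc25a28*/*Slc25a37* from 0.69 to 0.92 in brain and from -3.41 to -0.77 in spleen.

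In brain, no carrier passed the test between genotypes. Of 39 members tested, 0 passed an adjusted p under 0.05 in limma, with 0% of all 13051 genes called higher and 0.0153% called lower (2 genes), and the smallest adjusted p of a member was 0.718. At an unadjusted p under 0.05 there were also 0 members in either direction, while 3.73% of all genes were higher and 2.89% lower. The log2 change, *Norad*-/- minus *Norad*+/+, was above 0 in 28 members and below 0 in 11, while 55.1% of all genes lay above 0. The median was 0.07 for members and 0.02 for all genes. Without *Norad*+/+ brain replicate 3 the members' median was -3.49e-05 and 19 of 39 members lay above 0. With all libraries, changes of single members ran from -0.58 to 0.32. The lean of members above 0 was absent in the fit without that library, and its cause was not tested.

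The member with the smallest p in brain was *Slc25a46*, a carrier relative of the outer membrane known for its part in mitochondrial fission and fusion. It had 51.7, 26.2 and 43.0 FPKM in *Norad*+/+ and 25.0, 25.7 and 27.1 in *Norad*-/-. The groups overlapped, since *Norad*+/+ replicate 2 sat among the *Norad*-/- values. The log2 change was -0.58 ± 0.25 (SE, adjusted p = 0.718, limma). Next on the lower side were *Slc25a45* (-0.22), *Slc25a30* (-0.23) and *Slc25a38* (-0.24), with adjusted p from 0.718 to 0.762.

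On the higher side, 6 of 39 members (15.4%) had all *Norad*-/- brain libraries above all *Norad*+/+ libraries, against 10.6% of all genes, and 0 members had them all below, against 6.56%. These were *Slc25a1*, *Slc25a15*, *Slc25a16*, *Slc25a28*, *Slc25a36* and *Slc25a44*. *Slc25a16*, which is linked to coenzyme A uptake, had 9.89, 9.75 and 7.53 FPKM in *Norad*+/+ and 10.3, 10.7 and 11.6 in *Norad*-/-. *Slc25a28*, mitoferrin-2, the iron importer of non-erythroid cells, had 15.2, 14.5 and 10.9 against 16.6, 16.0 and 16.7. In both genes *Norad*+/+ replicate 3, the library that stood apart, was the lowest, and their log2 changes of 0.27 and 0.29 were both 0.14 without it. *Slc25a40* (0.29), *Slc25a39* (0.32) and *Slc25a15* (0.28) were the other members of smallest p, each with an adjusted p of 0.718, and had 0.20, 0.17 and 0.16 without that library. Leaving out *Norad*+/+ brain replicate 3 gave 8 members above and 2 below without overlap, 20.5% and 5.13% of members against 20.7% and 13.6% of all genes. Leaving out *Norad*-/- brain replicate 3 instead, the library with pituitary genes, gave 6 above and 2 below. These were 15.4% and 5.13% of members against 14.3% and 12.7% of all genes.

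**Figure D3:**
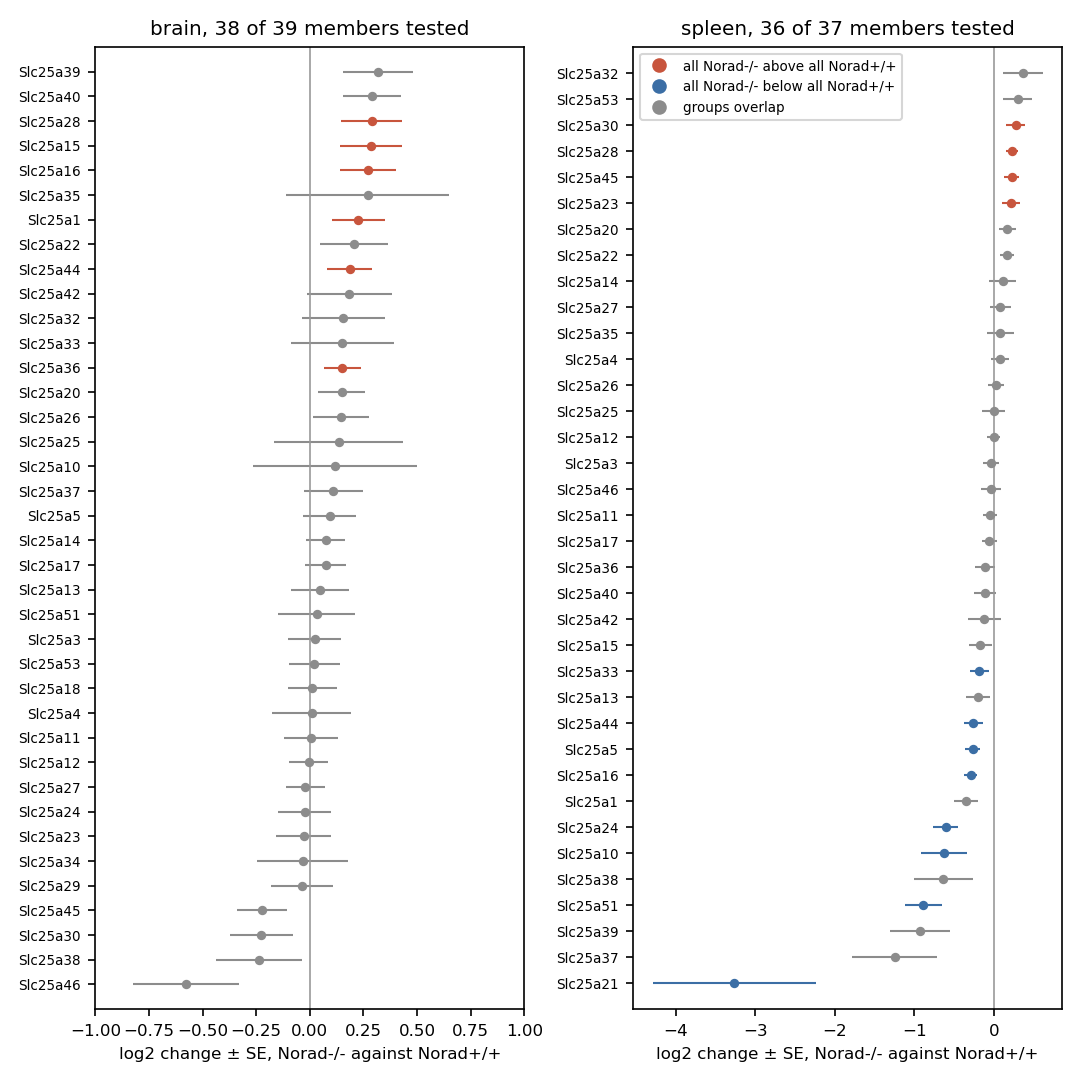
Log2 change of each tested carrier, *Norad*-/- against *Norad*+/+ (horizontal, bars 1 SE of the limma fit), in brain (left, 38 of the 39 members tested) and spleen (right, 36 of the 37), ordered by size, each panel with its own scale. Red marks members whose *Norad*-/- libraries all lie above the *Norad*+/+ libraries, blue those all below, grey those that overlap. Brain changes lie between -0.58 and 0.32, and in spleen *Slc25a21* reaches -3.26 with *Slc25a37*, *Slc25a39* and *Slc25a51* next.

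In spleen no member passed the test either, and the members that differed most were the carriers of oxodicarboxylates, iron, glutathione and NAD, with lower mean levels in *Norad*-/- libraries. Of 37 members, 0 had an adjusted p under 0.05 (0.00807% of all 12397 genes were called higher and 0.0242% lower), and the smallest of a member was 0.171. At an unadjusted p under 0.05, 6 members were lower (16.2%, against 13.6% of all genes) and 1 was higher (2.7%, against 7.42%). Without overlap, 8 members were lower (21.6% against 14.9%) and 4 higher (10.8% against 11.6%). Both counts of lower members include *Slc25a21*, which passed the expression filter through *Norad*+/+ spleen, so its place in them supports nothing. The median log2 change was -0.05 for members and -0.02 for all genes. Without *Norad*+/+ spleen replicate 3, the library with pancreas and liver genes, the members' median was 0.00181, and *Slc25a21*, *Slc25a37* and *Slc25a51* had -2.87, -0.96 and -0.72 in place of the values below. Rescaling to TPM, which left 14162 genes tested in place of 12397, moved the median of all genes by 0.12. The median of members became 0.07, below the 0.10 of all genes.

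Red cell precursor genes differed between the same libraries. In sum, the 14 red cell precursor genes found in the tables had 926, 2364 and 3125 FPKM in *Norad*+/+ spleen replicates 1 to 3, and 97.6, 79.3 and 1240.0 in *Norad*-/- replicates 1 to 3, with none of the 14 under 0.1 FPKM in any spleen. All 14 had log2 changes below 0 (median -3.67) and 13 an unadjusted p under 0.05. The 7 neutrophil precursor genes ran from 828 to 2412 FPKM in sum in *Norad*+/+ and from 153 to 1506 in *Norad*-/- spleen, and the 6 cell division genes from 143 to 338 and from 63.0 to 143. The part of the neutrophil and division genes in the results below was not tested. Fewer cells of a type and less RNA per cell cannot be told apart in bulk spleen.

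Mitoferrin-1, *Slc25a37*, had 47.6, 46.2 and 148 FPKM in *Norad*-/- spleen against the 101, 179 and 242 of *Norad*+/+ spleen given above. *Norad*-/- replicates 1 and 2 were the lowest and replicate 3 lay inside the *Norad*+/+ range, and the order of the 6 libraries was the same as that of the red cell precursor sum. Its log2 change was -1.25 ± 0.54 (SE, adjusted p = 0.25, limma), and 0.17 ± 0.21 (SE) with the red cell precursor level as a covariate, a term that overlapped between the genotypes only through *Norad*-/- replicate 3. No member passed in that fit, and the part of red cell precursors in these differences cannot be told apart from genotype with 6 libraries. *Slc25a38*, the glycine carrier, had 13.3, 23.7 and 32.2 against 10.9, 12.1 and 20.2 FPKM, and its change of -0.63 ± 0.37 was 0.20 ± 0.34 with the covariate. *Slc25a39*, which brings glutathione into mitochondria, had 57.4, 101 and 95.3 against 30.8, 35.1 and 74.1 FPKM, and its change of -0.93 ± 0.38 was 0.04 ± 0.22 with it. *Slc25a40*, its paralog, had 3.27, 2.50 and 3.20 against 2.81, 2.84 and 2.56 FPKM, and the groups overlapped.

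*Slc25a21* had the lowest log2 change, and it passed the expression filter through *Norad*+/+ spleen, the group where it is high, so that its values are given as a description. Its *Norad*+/+ spleens read 2.08, 4.15 and 6.80 FPKM and its *Norad*-/- spleens 0.0552, 0.12 and 2.0, against 0.142 to 0.206 in the 6 brain libraries. The spleen groups did not overlap, but *Norad*-/- replicate 3 lay just under *Norad*+/+ replicate 1, while replicates 1 and 2 were at or under the level of brain. The log2 change was -3.26 ± 1.03 (SE, adjusted p = 0.187), a size that the pseudocount of 0.1 limits, and -0.55 ± 0.41 with the red cell precursor covariate. Without *Norad*-/- spleen replicate 3, the *Norad*-/- spleen with its highest level, it was -4.43 and crossed the threshold, which supports nothing given that filter.

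**Figure D4:**
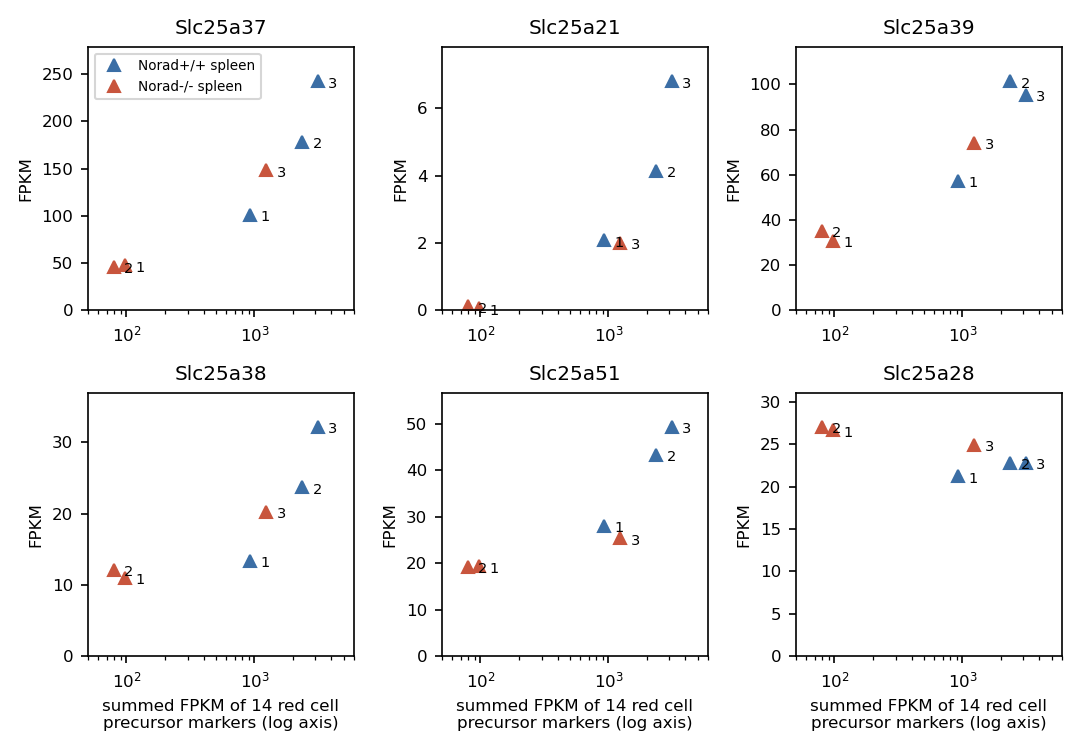
FPKM of 6 carriers in the 6 spleen libraries (vertical, linear axis from 0) against the summed FPKM of 14 red cell precursor genes in the same library (horizontal, log axis), blue for *Norad*+/+ and red for *Norad*-/-, with replicate numbers. *Slc25a37*, *Slc25a21*, *Slc25a39*, *Slc25a38* and *Slc25a51* are lowest in *Norad*-/- replicates 1 and 2, at 97.6 and 79.3 FPKM of the marker sum, and *Slc25a28* is highest there.

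*Slc25a51* and *Slc25a24* had the smallest p in spleen. *Slc25a51*, the NAD carrier (ENSMUSG00000045973, chromosome 4, 45395923 to 45408766), had 28.0, 43.4 and 49.4 FPKM in *Norad*+/+ and 19.3, 19.2 and 25.3 in *Norad*-/- spleen, groups that did not overlap. Its log2 change was -0.89 ± 0.23 (SE, adjusted p = 0.171, limma) and -0.42 ± 0.25 with the covariate. *Slc25a24* had 9.52, 11.8 and 12.3 against 7.17, 6.16 and 8.72 FPKM, also without overlap, with -0.61 ± 0.16 (adjusted p = 0.174) and -0.24 ± 0.14 with the covariate. *Slc25a16* was lower in all *Norad*-/- libraries, at 5.49, 5.32 and 5.09 against 6.77, 6.22 and 6.52 FPKM, with -0.29 ± 0.08 (adjusted p = 0.181) and -0.36 ± 0.12 with the covariate. *Slc25a5* had 32.8, 31.4 and 37.9 against 27.6, 29.3 and 27.8 FPKM, with -0.26 ± 0.09 (adjusted p = 0.205) and -0.26 ± 0.15 with the covariate. *Slc25a10*, the dicarboxylate carrier, *Slc25a33* and *Slc25a44*, a branched-chain amino acid carrier, were the others without overlap, at -0.63, -0.18 and -0.26.

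On the higher side in spleen, *Slc25a28* had 21.2, 22.8 and 22.8 FPKM in *Norad*+/+ and 26.7, 27 and 24.9 in *Norad*-/-. All *Norad*-/- libraries were above, with a log2 change of 0.23 ± 0.07 (SE, adjusted p = 0.19, limma), 0.35 after rescaling to TPM and 0.19 ± 0.12 with the covariate. The ratio of *Slc25a28* to *Slc25a37*, the pair of mitoferrins, was 1.61 to 1.67 in *Norad*+/+ brain and 1.79 to 1.89 in *Norad*-/- brain, without overlap. In spleen its log2 value was -2.25, -2.97 and -3.41 in *Norad*+/+ replicates 1 to 3 and -0.84, -0.77 and -2.57 in *Norad*-/- replicates 1 to 3, so that the groups overlapped through *Norad*-/- replicate 3. *Slc25a45* (0.23), *Slc25a30* (0.27) and *Slc25a23* (0.22) were the others without overlap, and *Slc25a22* (0.16) was next in p. Their adjusted p ran from 0.241 to 0.321. *Slc25a32*, the folate carrier with 4 PREs, had the highest change in spleen, 0.36 ± 0.25, with *Norad*-/- replicate 2 at 11.1 FPKM and the other 5 libraries between 5.48 and 6.21.

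The ratio of *Slc25a4* to *Slc25a5* was higher in every *Norad*-/- spleen (1.76 to 2.15) than in every *Norad*+/+ spleen (1.47 to 1.68). *Slc25a23* over *Slc25a24* behaved likewise, at 1.30 to 2.20 against 0.782 to 1.17. *Slc25a39* over *Slc25a40* was 10.9 to 28.9 in *Norad*-/- and 17.5 to 40.5 in *Norad*+/+ spleen, and overlapped.

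The genotype effect was then compared between tissues by an interaction term over all 12 libraries and 14967 genes. Of 40 members, 0 passed an adjusted p under 0.05, with 0% of all genes called in either direction. At an unadjusted p under 0.05, 9 members had a lower effect in spleen than in brain (22.5%, against 10.7% of all genes) and 2 a higher one (5%, against 4.06%). The 9 were *Slc25a1*, *Slc25a5*, *Slc25a16*, *Slc25a21*, *Slc25a24*, *Slc25a37*, *Slc25a39*, *Slc25a44* and *Slc25a51*, and the 2 were *Slc25a30* and *Slc25a45*. *Slc25a21* passed the filter through *Norad*+/+ spleen, where it is high, so its place among the 9 supports nothing. *Slc25a16* had the smallest p, with a difference of -0.56 ± 0.16 (SE, adjusted p = 0.22, limma): it was higher in all *Norad*-/- brains and lower in all *Norad*-/- spleens. Without *Norad*-/- spleen replicate 3, 3 members crossed the threshold, among them *Slc25a39* (-1.64, adjusted p = 0.0399), and *Slc25a21*, which entered the fit through *Norad*+/+ spleen. That library is the *Norad*-/- spleen with the highest level of both. The medians were -0.13 for members and -0.08 for all genes.

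The changes were then read by PRE content, as counts and medians without a test. In brain the 8 with a PRE had a median log2 change of 0.07, with 5 above 0, and the 31 without had 0.07, with 23 above 0. For all genes in brain the medians were 0.02 with a PRE (1801 of 3390 above 0) and 0.03 without (4732 of 8533 above 0). In spleen the 9 with a PRE had a median of -0.04 and the 28 without -0.05, against 0.01 and -0.03 for all genes. Of the members printed above with several sites, *Slc25a32* had changes of 0.16 in brain and 0.36 in spleen, and *Slc25a12* had mean levels of 48.8 FPKM in *Norad*+/+ and 48.6 in *Norad*-/- brain and of 15.7 in both spleen groups.

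Relatives outside the naming rule and other transporters of mitochondria were read for comparison. *Ucp2*, an uncoupling protein of the same fold, had 5.90 to 8.53 FPKM in brain and 395 to 606 in spleen, more than any Slc25a member there, and *Mtch1*, an outer membrane relative, had 109 to 159.6 in brain and 40.6 to 46.6 in spleen. Among 22 other transport genes, which include porins, the pyruvate carrier, the calcium uniporter and heme-related ABC transporters, 0 passed in either genotype comparison. Their median log2 change was 0.04 in brain (21 tested) and -0.21 in spleen (22 tested, 17 below 0). At an unadjusted p under 0.05, 6 of the 22 were lower and 0 higher in spleen, beside 13.6% and 7.42% of all genes, and 46.2% of all genes lay above 0. The smallest p in spleen were those of the sideroflexins *Sfxn5* and *Sfxn1*, the latter a serine carrier, of the ABC transporter *Abcb8* and of the porin *Vdac1*, with log2 changes of -0.56, -0.48, -0.36 and -0.40. *Abcb10* and *Abcb6*, ABC transporters of heme-forming cells picked here after their values were seen, had -1.87 and -1.49 in spleen, with *Norad*-/- replicates 1 and 2 the lowest libraries for both. In brain *Mpc1*, a subunit of the pyruvate carrier, had 2.99, 3.23 and 3.37 FPKM in *Norad*+/+ and 2.01, 1.92 and 1.83 in *Norad*-/-, a log2 change of -0.71 ± 0.10 (SE, adjusted p = 0.22, limma), without overlap.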

How the data were processed

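Poly(A) RNA of brain and spleen was sequenced as stranded single 75-base reads. Per the labels and the study's methods, the authors aligned the reads with TopHat2 (2.0.12) to GRCm38, kept uniquely mapped reads, and deposited FPKM per gene and library, made with StringTie (1.2.2). Reads shared by near-identical copies are therefore missed, and whether strand was used for FPKM is not given in the sources used here. The authors' own test on featureCounts (1.4.6) counts with edgeR (3.8.6) was not analysed here.

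Values were fitted as log2(FPKM + 0.1) with limma (3.58.1, trended variance, R 4.3.3), per tissue for genotype, per genotype for tissue and over 12 libraries for the interaction. Genes averaging under 1 FPKM over the libraries fitted were left out. For the interaction only genes averaging under 1 FPKM in both tissues were left out, so a gene could enter through a single tissue. The p-values were Benjamini-Hochberg adjusted over all genes tested, with calls at 0.05. Fold changes of low genes are understated on this scale. Errors beside fold changes are SE. The fit was tested on simulated data. Depth was estimated from FPKM steps, so no counting interval is given. PREs were searched in GENCODE M21. Alternatives were TPM scaling, quantile normalization, other pseudocounts and filters, a replicate block, a marker covariate and leaving out each library.

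Named members were the 10 with the largest tissue difference each way in *Norad*+/+ mice, the 5 of smallest p each way per genotype comparison, the 5 of highest mean per tissue and the members of fixed pairs, with up to 4 other transport genes of smallest p. Further members were named after their values were seen: those in small counts, those without overlap and *Slc25a32*. Members and lists were chosen with earlier results of these data known. Same-numbered libraries did not deviate together throughout, so the numbers were not taken as pairs. Correlations were 0.36, -0.18 and 0.38 between genotypes in spleen, and -0.02 to 0.13 between brain and spleen of a genotype. The study names 3 mice per genotype for both tissues, so brain and spleen libraries may share mice. The tissue and interaction fits took all libraries as independent. 1 member is counted but not reported by name here.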

Additional observations from a re-analysis of the deposited data

Results flagged for a closer look

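For *Slc25a16*, all *Norad*-/- brains lay above and all *Norad*-/- spleens below the *Norad*+/+ libraries of their tissue, with log2 changes of 0.27 in brain and -0.29 in spleen. Without *Norad*+/+ brain replicate 3, the library that stood apart, the brain change was 0.14. The test of the difference itself gave -0.56 ± 0.16 (SE, adjusted p = 0.22, limma), which did not pass. For *Slc25a44* the same opposite order was seen, with 0.19 in brain (0.12 without that library) and -0.26 in spleen. Its difference was -0.45 ± 0.16 (SE, adjusted p = 0.261, limma), which did not pass either. Groups of 3 libraries were not tested for a library far from the others.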

How the results depend on the processing

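With 3 libraries per group and no counts, small changes of low carriers could not be resolved. Under TPM the median of members became 0.0665 in spleen between genotypes and 0.067 between tissues in *Norad*+/+ mice, and under quantile normalization the spleen value was 0.0194. The interaction of *Slc25a28* turned from -0.06 to 0.034 under TPM and 0.027 under quantile normalization, and that of *Slc25a22* from -0.04 to 0.049 and 0.028. Leaving out each library in turn, these ranged from -0.14 to 0.092 for *Slc25a28* and from -0.12 to 0.11 for *Slc25a22*, and *Slc25a22* was above 0 without *Norad*+/+ brain replicate 3 (0.11), *Norad*-/- brain replicate 3 (0.033) or *Norad*-/- spleen replicate 3 (0.012). Members called ranged from 0 to 1 in spleen and from 0 to 3 for the interaction, the highest without *Norad*-/- spleen replicate 3, where 93 and 344 of all genes passed. Members without overlap, an alternative added after seeing the data, ranged from 6 to 10 above and 0 to 2 below in brain. Without *Norad*+/+ replicate 2 they were 10 and 2, or 25.6% and 5.13%, against 18.7% and 9.69% of all genes. In spleen they ranged from 4 to 9 above and 8 to 14 below. The 9 came without *Norad*-/- replicate 3 (24.3%, against 20.6% of all genes). The 14 came without *Norad*+/+ replicate 1 (37.8%, against 29.7% of all genes). With a replicate block 0, 0 and 0 members were called in brain, spleen and the interaction and 30 and 29 between tissues, and no call changed. The cause of these shifts was not tested.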
